A study of Mus musculus with 12 samples.

Results

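CD24 dendritic cells (CD24 DC) of the mouse spleen were compared with CD172a dendritic cells (CD172a DC) of the same organ over all measured genes. The comparison took the 3 CD24 DC arrays and the 2 CD172a DC arrays by their titles, which made 5 of the 12 arrays of the series. The other 7 arrays held bone marrow progenitors, of which the pre-CD8 (n = 2) and pre-CD4 (n = 2) progenitors are used below. All mice carried a GFP reporter at 1 allele of Zbtb46 (Zbtb46GFP/+), were on a C57Bl/6 background and were untreated, at steady state. Splenocytes of littermates were released with collagenase B and DNase and sorted. CD24 DC were gated positive for CD11c and CD24 and negative for CD172a. CD172a DC were gated on CD11c and CD172a together with MHC class II. For CD24 DC the label reads MHC class II negative. H2-Ab1, which encodes a chain of MHC class II, nevertheless stood at 12.16, 12.06 and 12.35 (log2) on the CD24 DC arrays, against 11.79 and 12.06 on the CD172a DC arrays. No age or sex is given in the labels. Nor do they state if separate mice or pools stand behind the arrays, so that the p-values reflect array-to-array spread alone, which may be technical.

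Classical dendritic cells take up antigen and present it to T cells. The lineage called cDC1, which needs Irf8 and Batf3, is known for cross-presentation of cell-associated antigen to CD8+ T cells. The lineage called cDC2, which is marked by CD172a and uses Irf4, is known for priming of CD4+ T cells and for sensing of microbes. The called marker genes mostly went with these names. Of 28 measured cDC1 genes 24 were higher in CD24 DC and none lower, and of 28 measured cDC2 genes 14 were lower and 1 higher. The mean over the cDC1 genes was 9.21 to 9.45 on CD24 DC arrays and 6.68 to 6.79 on CD172a DC arrays. Xcr1, a chemokine receptor of cDC1, stood at 10.22, 10.41 and 9.66 in CD24 DC and at 5.80 and 5.62 in CD172a DC. Irf8 was higher in CD24 DC by 3.51 ± 0.24 on the log2 scale. Batf3 was not called (9.62, 9.5 and 8.91 in CD24 DC, 7.42 and 9.06 in CD172a DC), and its groups overlapped. Cd24a, which encodes the sort marker CD24, was higher by 1.27 ± 0.22, a call that ended without CD172a DC array 1. Of the cDC2 genes, Klf4 was not called (-1.32 ± 0.39). Esam, an adhesion molecule of splenic cDC2, did not separate the groups (5.13, 5.61 and 5.64 in CD24 DC, 5.46 and 5.53 in CD172a DC). Clec12a, an inhibitory lectin placed in the cDC2 list, was higher in CD24 DC, by 1.83 ± 0.25 on the log2 scale (SE, adjusted p = 0.00057). Below, genes of surface, signalling and metabolic families outside these lists are described.

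All values are the authors' log2 expression values, and a difference is CD24 DC minus CD172a DC with its standard error from limma. A gene is called at a Benjamini-Hochberg adjusted p under 0.05 over the 22184 genes tested. Of these, 1239 were called (5.59%), 713 higher in CD24 DC (3.21%) and 526 lower (2.37%). A difference of at least 4-fold was found in 100 of the higher and 113 of the lower genes. The median difference over all genes was -0.01. In all 1239 the arrays of the groups did not overlap, as they did not in 27.0% of all genes. Over all 35145 probe sets the arrays did not group cleanly by cell type. Pearson correlations were 0.925 to 0.9617 among CD24 DC arrays, 0.9664 between the CD172a DC arrays and 0.9039 to 0.9601 across the groups. The interquartile range of the values also differed, from 2.10 on CD24 DC array 3 to 2.59 on CD24 DC array 1. With so few arrays single ones carried many calls. Without CD172a DC array 1 the counts were 255 higher and 301 lower, and without CD172a DC array 2 they were 586 higher and 287 lower. The call of 390 genes (208 higher, 182 lower) held without each of the 5 arrays in turn. Values below are given mainly for such genes, and for the others the array whose omission ends the call is named.

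Markers of other cells were looked at first, because 2 arrays stood apart in them. S100a8, an abundant neutrophil transcript, stood at 4.62, 9.52 and 4.52 on the CD24 DC arrays and at 10.24 and 4.83 on the CD172a DC arrays, so CD24 DC array 2 and CD172a DC array 1 were high and the others low. The mean over 14 neutrophil markers was 4.71, 6.19 and 5.18 in CD24 DC and 6.35 and 4.85 in CD172a DC, and none was called. Monocyte and macrophage markers were lower in CD24 DC, with means of 6.16 to 6.28 against 6.86 to 6.91. Of 26 measured, 6 were lower and 1 higher (median difference -0.61). Lyz2, a lysozyme gene of myeloid cells, did not differ in this way (9.78, 10.24 and 10.02 in CD24 DC, 10.25 and 9.70 in CD172a DC). The means over T cell, NK cell, B cell and plasmacytoid DC markers overlapped between the groups or lay close together, and all stood between 4.48 and 6.27. Of 13 B cell and plasma cell markers, Fcrla (2.04 ± 0.34) and Ms4a1 (1.43 ± 0.24), which encodes CD20, were called higher in CD24 DC and Cd22 (-1.76 ± 0.24) lower. Cell cycle genes had a mean of 6.46 on CD24 DC array 3 and 7.02 to 7.28 on the other 4. The part of these cells in the differences below was not tested beyond leaving arrays out. With both neutrophil-marked arrays left out, 176 genes were called higher and 232 lower, a fit with 2 CD24 DC arrays and 1 CD172a DC array. In sorted bulk samples, fewer cells of a type and less RNA per cell cannot be told apart.

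**Figure D1:**
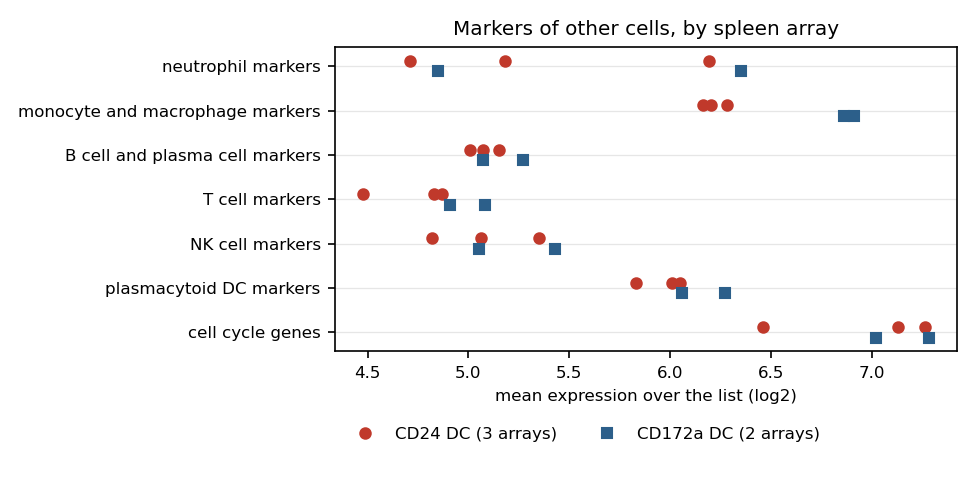
Mean log2 expression over lists of markers of other cells (x axis) on each spleen array, with circles for the 3 CD24 DC arrays and squares for the 2 CD172a DC arrays. Neutrophil markers were at 6.19 on CD24 DC array 2 and 6.35 on CD172a DC array 1, and at 4.71 to 5.18 on the other 3.

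The genes outside the cDC lists that led the comparison included receptors and lipid genes. Gpr141b, an orphan G protein-coupled receptor, stood at 11.17, 11.32 and 11.16 in CD24 DC, against 6.31 and 6.51 in CD172a DC, a difference of 4.81 ± 0.49 (28.0-fold, adjusted p = 6.18e-05). P2ry14, the receptor for UDP-glucose, stood at 9.45, 10.13 and 9.52 against 6.57 and 5.66 (3.58 ± 0.43). Gpr33, an orphan receptor related to chemoattractant receptors, stood at 8.82, 8.25 and 8.09 against 4.92 and 4.65 (3.60 ± 0.30). In each of these the lowest CD24 DC array was above the highest CD172a DC array by more than the spread within either group. P3h2, a collagen prolyl hydroxylase, was higher by 4.17 ± 0.36, and Hepacam2, an immunoglobulin-like membrane protein, by 3.70 ± 0.33. Clec4b2 and F630111L10Rik were higher by 3.64 ± 0.52 and 4.20 ± 0.43. Ctla2b, a gene of a family of cysteine protease inhibitors, was higher by 3.43 ± 0.61, but its call ended without CD172a DC array 1 (adjusted p = 0.0701).

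In the other direction the largest difference was in Ptgs2, which encodes cyclooxygenase-2, the inducible enzyme that starts prostaglandin synthesis. It stood at 6.42, 6.29 and 6.4 in CD24 DC and at 11.28 and 11.41 in CD172a DC, a difference of -4.97 ± 0.24 (31.4-fold lower, adjusted p = 1.48e-07). Il1r2, the decoy receptor for interleukin-1, was at 5.12, 7.80 and 7.40 against 10.42 and 11.35 (-4.11 ± 0.61), with a wide spread among CD24 DC arrays. Dscam, a homophilic adhesion molecule, was at 4.49, 4.35 and 5.06 against 8.46 and 8.67 (-3.93 ± 0.24). Klrd1, which encodes CD94, was lower by 3.94 on the log2 scale (SE 0.56), and its CD24 DC values of 7.38, 6.24 and 4.46 were widely spread. Fabp5, a carrier of fatty acids in the cytosol, was at 7.03, 7.72 and 6.93 against 11.16 and 10.96 (-3.84 ± 0.35). Gm9733, Gm6637 and Bex6 completed the 8 lowest, with differences of -4.46, -3.94 and -3.76. The lower 8 calls held without each array.

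**Figure D2:**
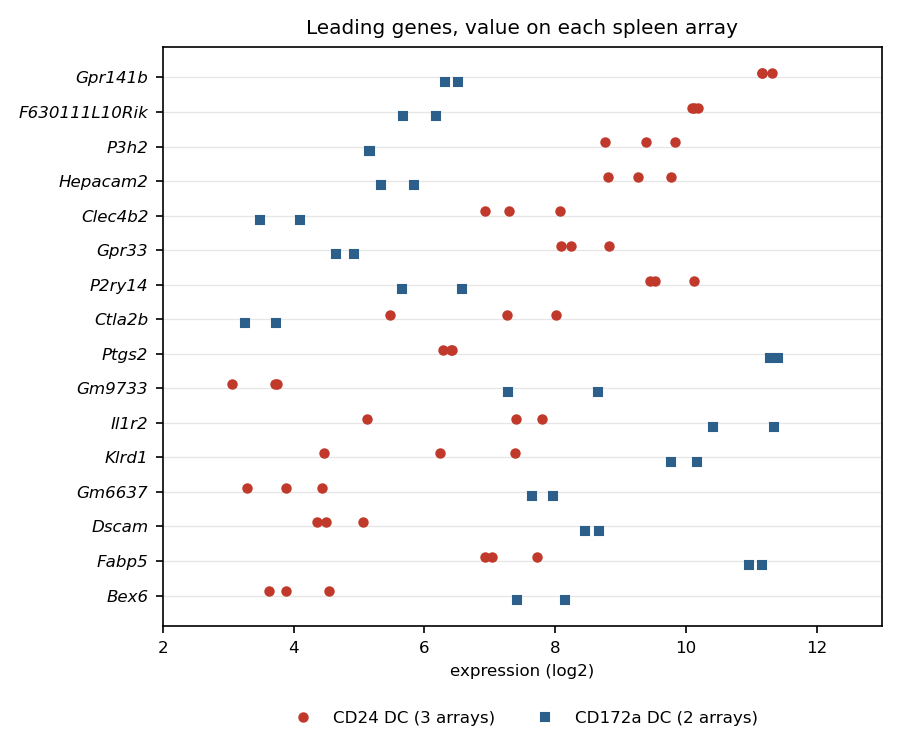
Log2 expression (x axis) of the 8 genes highest and the 8 lowest in CD24 DC among called genes outside the sort and cDC lists, on each spleen array (circles CD24 DC, squares CD172a DC). For every gene the symbols of the groups do not overlap, as with Gpr141b (11.16 to 11.32 in CD24 DC, 6.31 to 6.51 in CD172a DC).

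Surface families were lower more often than higher. Of 593 measured genes in 10 surface lists, 39 were called higher (6.58%) and 63 lower (10.6%) (median difference -0.10; 19 higher and 41 lower without CD172a DC array 1, 31 higher and 39 lower without CD172a DC array 2). The lists were chosen for immune cells, and their shares in both directions stood above those over all genes. The integrins, adhesion molecules and tetraspanins went the other way by count, with 11 higher and 6 lower of 92 (median difference -0.065; 3 higher and 4 lower without CD172a DC array 1, 9 higher and 3 lower without CD172a DC array 2). The C-type lectins and galectins had 3 higher and 9 lower of 42 (median difference -0.11). The chemokine and chemoattractant receptors had none higher and 5 lower of 25 (median difference -0.29; 0 higher and 3 lower without CD172a DC array 1). The SLAM, Siglec, CD300 and paired immunoglobulin receptors had 4 higher and 10 lower of 51 (median difference -0.46; 2 higher and 9 lower without CD172a DC array 1), and their median was the lowest of the surface lists.

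**Figure D3:**
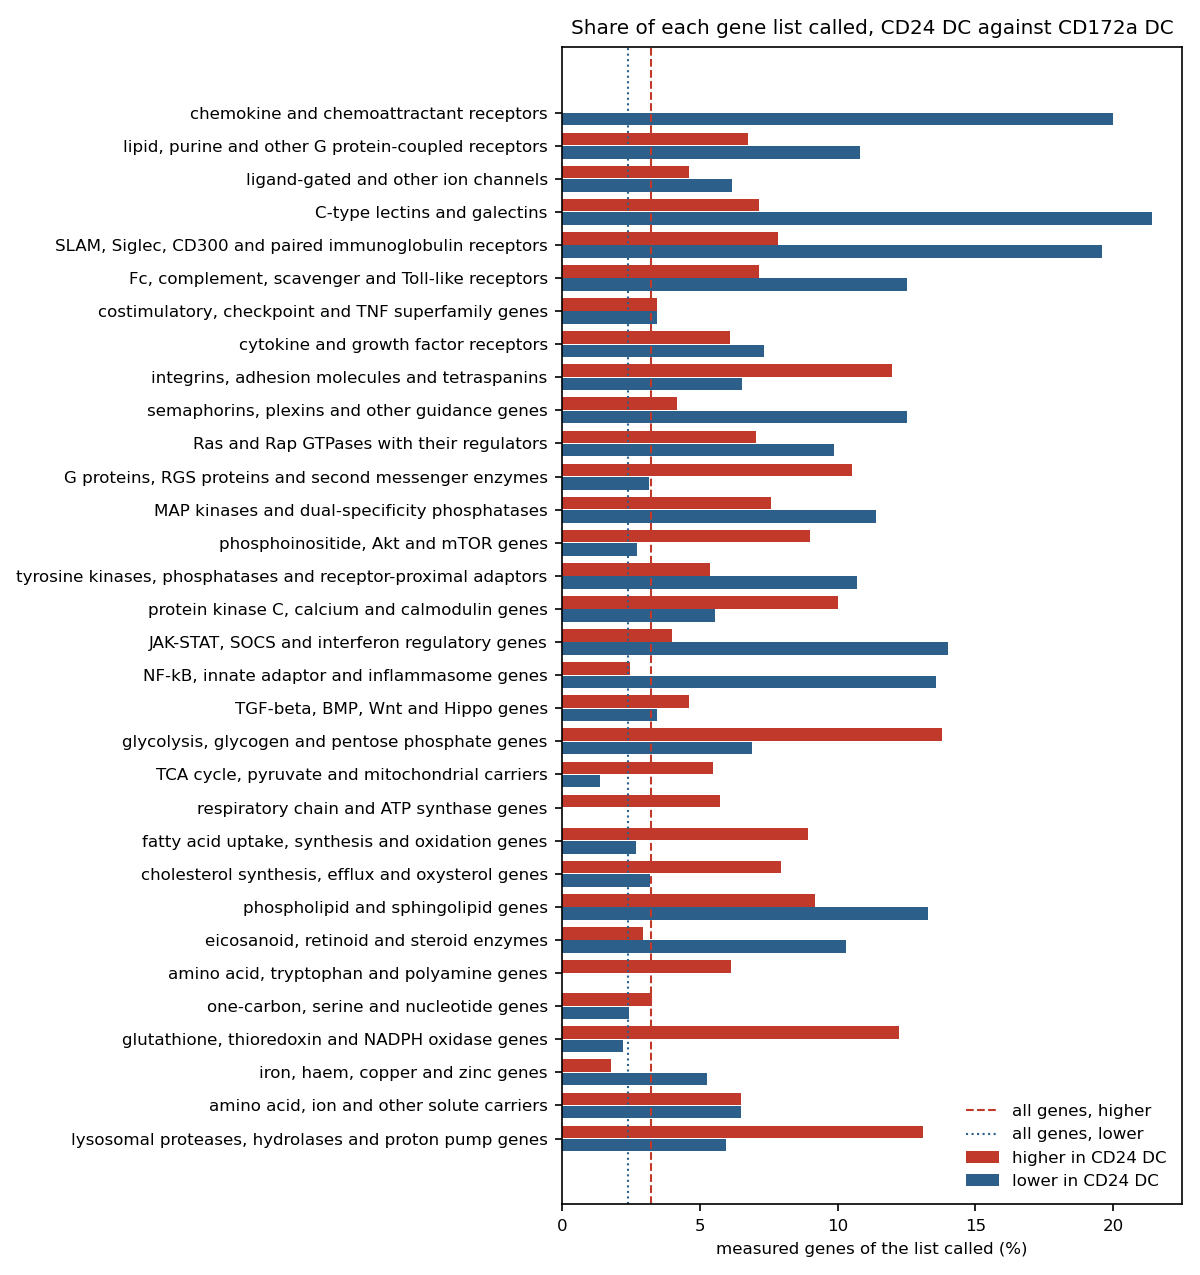
Share of the measured genes of 32 surface, signalling and metabolism lists (rows) that was called higher (upper bar) or lower (lower bar) in CD24 DC than in CD172a DC, in percent on the x axis. Dashed and dotted lines give the shares over all genes, 3.21% higher and 2.37% lower; the C-type lectins had 21.4% lower and the redox genes 12.2% higher.

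Among inhibitory and paired receptors, Siglece, a sialic acid-binding receptor with inhibitory motifs, stood at 4.47, 4.88 and 5.17 in CD24 DC and at 7.37 and 7.63 in CD172a DC (-2.66 ± 0.35, adjusted p = 0.000486). Lair1, an inhibitory receptor for collagens, stood at 6.69, 6.65 and 6.22 against 8.70 and 8.92 (-2.29 ± 0.22). Ceacam1 (-2.64 ± 0.40), Pilra (-2.20 ± 0.33), Cd22 (-1.76 ± 0.24) and Cd300lf (-1.61 ± 0.22) were lower as well, all receptors that carry inhibitory motifs, of which Cd22 is also a B cell marker. Within the CD300 family the direction was mixed. Cd300ld was lower (-2.50 ± 0.29) and Cd300c higher, at 8.62, 8.02 and 8.41 against 6.27 and 6.58 (1.92 ± 0.27). Treml4, a receptor that binds dead cells, was also higher (2.14 ± 0.26). Slamf8 was higher by 1.79 ± 0.38, a call that ended without CD172a DC array 1 (adjusted p = 0.141) or array 2 (0.0639).

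Among lectins, Clec7a, which encodes the beta-glucan receptor Dectin-1, was at 7.28, 7.23 and 7.08 in CD24 DC against 8.97 and 9.67 in CD172a DC (-2.13 ± 0.26). Clec4n, which encodes Dectin-2, a receptor for fungal mannans, was at 4.79, 5.21 and 5.06 against 6.90 and 7.0 (-1.93 ± 0.26). Klri2, of the NK receptor complex, and Cd69, an early activation antigen, were lower by 2.64 and 2.39 on the log2 scale. Cd69 is also among the dissociation stress genes, of which it was the only 1 called of 23. Clec1a was higher, at 7.92, 7.82 and 7.33 against 5.46 and 5.35 (2.28 ± 0.27). The neighbouring lectin genes Clec4b2 and Clec4b1 were called in opposite directions (3.64 and -2.84). They are close paralogs, so how far probes of one measure the other is uncertain.

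Chemoattractant and adhesion receptors followed. Ackr1, an atypical receptor that binds chemokines without signalling, was at 4.81, 4.28 and 4.32 in CD24 DC against 8.16 and 7.37 in CD172a DC (-3.29 ± 0.26, adjusted p = 8.68e-06). Ccrl2, which presents chemerin, was at 7.27, 9.09 and 8.76 against 10.82 and 11.02 (-2.55 ± 0.44). Ccr3 was lower by 2.20 on the log2 scale, though its CD172a DC values of 4.63 and 6.46 lay far apart. Of the adhesion G protein-coupled receptors, Adgre1, which encodes F4/80, a macrophage marker, was at 5.52, 5.52 and 5.63 against 9.20 and 9.42 (-3.75 ± 0.28). Adgre4 (-3.76 ± 0.33) and Adgrg6 (-2.43 ± 0.27) were lower too. Gpr183, the oxysterol receptor that positions cDC2 in the spleen, was lower by 1.88 on the log2 scale (SE 0.21). Gpr171, a receptor for a neuropeptide, was higher, at 10.55, 10.92 and 10.74 against 8.51 and 8.56 (2.20 ± 0.21). Gpr141 was lower (-1.93 ± 0.43) where its relative Gpr141b was higher, but the call of Gpr141 ended without CD172a DC array 1 (adjusted p = 0.162) or array 2 (0.0778).

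Several growth factor receptor genes were higher in CD24 DC. Met, the receptor for hepatocyte growth factor, was at 7.57, 8.03 and 7.29 in CD24 DC against 5.15 and 4.61 in CD172a DC (2.75 ± 0.30, adjusted p = 0.000109). Flt1, a receptor for vascular endothelial growth factor, was at 6.49, 6.74 and 6.78 against 4.54 and 4.67 (2.06 ± 0.23). Igf2r, the receptor that carries mannose 6-phosphate-tagged enzymes to lysosomes, was at 6.82, 6.61 and 6.31 against 4.76 and 4.86 (1.77 ± 0.27). Stromal and endothelial markers as a list held no called gene of 11. Il21r, the interleukin-21 receptor, was lower (-2.35 ± 0.31). Over the cytokine and growth factor receptors 5 were higher and 6 lower of 82 (median difference -0.11; 4 higher and 2 lower without CD172a DC array 1, 3 higher and 2 lower without CD172a DC array 2).

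Coinhibitory, guidance and channel genes are given next, with the counts of their lists. Ctla4, which encodes a receptor that removes CD80 and CD86 from cells, was at 6.82, 6.41 and 6.22 in CD24 DC against 4.25 and 3.88 in CD172a DC (2.42 ± 0.23, adjusted p = 3.83e-05). Tnfrsf21 was higher (1.66 ± 0.21) and Tnfsf8, which encodes CD30 ligand, lower (-1.64 ± 0.28). The list of costimulatory and TNF superfamily genes had 2 higher and 2 lower of 58 (median difference -0.03; 2 higher and 1 lower without CD172a DC array 1, 2 higher and 1 lower without CD172a DC array 2, 2 higher and 1 lower without CD24 DC array 2, 3 higher and 4 lower without CD24 DC array 3), near the shares over all genes. Semaphorins, plexins and other guidance genes had 2 higher and 6 lower of 48 (median difference -0.07; 1 higher and 4 lower without CD172a DC array 1, 2 higher and 4 lower without CD172a DC array 2). Sema4a was higher (1.94 ± 0.24) and Sema4d lower (-1.37 ± 0.23), both class 4 semaphorins. Plxnd1 (-2.03 ± 0.24) and Plxnc1 (-1.20 ± 0.20) were lower. Ion channel genes had 3 higher and 4 lower of 65 (median difference -0.08; 2 higher and 2 lower without CD172a DC array 1, 3 higher and 1 lower without CD172a DC array 2). Trpm2, a calcium channel opened by ADP-ribose, was at 8.32, 8.29 and 8.47 against 6.35 and 6.10 (2.13 ± 0.31). Cacna1e, a voltage-gated calcium channel subunit, was at 8.98, 8.90 and 8.55 against 6.73 and 6.73 (2.08 ± 0.21). Cd81, a tetraspanin, was higher by 2.17 ± 0.34, and Cadm3, an adhesion molecule of the family that holds Cadm1, was lower by 2.73 on the log2 scale (SE 0.21). Cadm1 itself was higher, at 9.67, 9.78 and 9.85 against 6.45 and 6.35.

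Of 880 measured genes in 10 signalling lists, 67 were higher (7.61%) and 70 lower (7.96%) (median difference -0.05; 27 higher and 39 lower without CD172a DC array 1, 46 higher and 32 lower without CD172a DC array 2). Over all genes 3.21% were called higher and 2.37% lower. The directions differed by list. In the next 2 lists the shares of lower genes, 2.70% and 3.16%, stood near that over all genes. Phosphoinositide, Akt and mTOR genes had 10 higher and 3 lower of 111 (median difference 0.02; 7 higher and 1 lower without CD172a DC array 1, 8 higher and 0 lower without CD172a DC array 2), and G protein and second messenger genes 10 higher and 3 lower of 95 (median difference 0.02; 2 higher and 1 lower without CD172a DC array 1, 4 higher and 0 lower without CD172a DC array 2). NF-kB, innate adaptor and inflammasome genes had 2 higher and 11 lower of 81 (median difference -0.19; 1 higher and 7 lower without CD172a DC array 1, 1 higher and 5 lower without CD172a DC array 2, 1 higher and 7 lower without CD24 DC array 2). JAK-STAT and interferon regulatory genes had 2 higher and 7 lower of 50 (median difference -0.16; 1 higher and 6 lower without CD172a DC array 1).

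Most called innate sensing and interferon genes were lower in CD24 DC. Stat4, which relays interleukin-12 and type I interferon signals, was at 5.87, 5.74 and 5.17 in CD24 DC against 8.91 and 9.03 in CD172a DC (-3.38 ± 0.30, adjusted p = 2.17e-05). Ddx58, which encodes the RNA sensor RIG-I, was at 5.22, 5.03 and 4.67 against 7.01 and 7.10 (-2.08 ± 0.29). Oas2, a synthase of the oligoadenylates that activate RNase L, was at 4.22, 4.88 and 5.38 against 7.50 and 7.71 (-2.78 ± 0.36). Ifitm2 and Ifitm3, membrane proteins that restrict virus entry, were lower by 1.91 and 1.49 on the log2 scale. Nlrc4, an inflammasome sensor of bacterial flagellin, was lower (-1.93 ± 0.25), as were Ticam2 (-1.95 ± 0.31), an adaptor of Toll-like receptor 4, and Malt1 (-1.48 ± 0.24), a protease of the Card-Bcl10 pathway. Nlrp3 (-1.42 ± 0.24) lost its call without CD172a DC array 1 (adjusted p = 0.0652), and Ifih1, which encodes the RNA sensor MDA5, without CD172a DC array 2 (0.117). Tlr7, of the cDC2 list, was at 3.69, 3.87 and 3.86 against 8.87 and 9.47. Tlr3, of the cDC1 list, went the other way, at 10.4, 10.58 and 9.74 against 6.66 and 6.77 (3.52 ± 0.31). Tlr1 was lower (-1.64 ± 0.26). The 2 higher NF-kB, innate adaptor and inflammasome genes were Trafd1 (1.21 ± 0.22) and Nlrc5 (1.11 ± 0.24). The call of Trafd1 ended without CD172a DC array 2. That of Nlrc5 ended without CD172a DC array 1 or CD24 DC array 2. Tyk2, a kinase of the interferon and interleukin-12 receptors, was higher, at 8.16, 8.22 and 8.55 against 6.76 and 6.97 (1.45 ± 0.22). Mx1, an interferon-induced antiviral gene, was higher by 1.5 ± 0.27, a call that ended without CD172a DC array 1 (adjusted p = 0.0749).

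Promoter windows of RefSeq (GRCm38.p6, 250 bases before to 50 after a start) were searched for 8 motifs on both strands, chosen with the differences known. They were searched in the genes with a window, 579 of those higher in CD24 DC, 397 of those lower and 16994 of all tested, and the shares are descriptions with no test. The interferon-stimulated response element core, GAAA repeated after a gap of 2 bases, was held by 5.35% of higher, 9.07% of lower and 3.87% of all genes. The PU.1 site GAGGAAGT was held by 4.49% of higher, 7.81% of lower and 3.44% of all. For the other 6 the shares in higher, lower and all genes were 3.63%, 3.53% and 3.04% for the Ets-IRF composite (GGAA, a gap of 2 bases, GAAA), 4.84%, 5.29% and 5.54% for the AP-1 site TGACTCA, and 7.25%, 6.05% and 6.45% for the NF-kB site (GGG, a gap of 3 bases, TTCC). The antioxidant response element core TGACNNNGC had 17.8%, 18.4% and 14.9%, the CLEAR core TCACGTGA 2.25%, 2.52% and 1.44%, and the AP-1-IRF composite (GAAA, a gap of 1 base, TGACTCA) 4 genes in all and none called. A PU.1 site can overlap an Ets-IRF composite, a response element core can overlap either composite, and the AP-1-IRF composite contains the AP-1 site. The windows of 3 lower genes and 1 higher gene with a response element core are shown as examples picked from the matches, with the core in capitals on either strand. Ifitm3 lies at chr7:141010695-141010994 (minus strand), Ddx58 at chr4:40239776-40240075 (minus), Cybb at chrX:9469275-9469574 (minus) and Gpr141b at chr13:19732902-19733201 (minus).
Ifitm3: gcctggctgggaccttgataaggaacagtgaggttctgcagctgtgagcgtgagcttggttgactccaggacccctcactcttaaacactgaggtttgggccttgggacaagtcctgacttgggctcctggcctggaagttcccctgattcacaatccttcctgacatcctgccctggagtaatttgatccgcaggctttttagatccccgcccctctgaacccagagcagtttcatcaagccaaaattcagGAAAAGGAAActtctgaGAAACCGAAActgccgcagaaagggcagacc
Ddx58: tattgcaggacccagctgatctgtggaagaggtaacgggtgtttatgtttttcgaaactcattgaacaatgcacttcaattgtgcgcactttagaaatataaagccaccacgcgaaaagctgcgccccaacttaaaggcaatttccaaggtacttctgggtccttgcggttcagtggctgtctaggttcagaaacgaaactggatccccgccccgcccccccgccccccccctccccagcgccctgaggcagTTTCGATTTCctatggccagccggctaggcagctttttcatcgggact
Cybb: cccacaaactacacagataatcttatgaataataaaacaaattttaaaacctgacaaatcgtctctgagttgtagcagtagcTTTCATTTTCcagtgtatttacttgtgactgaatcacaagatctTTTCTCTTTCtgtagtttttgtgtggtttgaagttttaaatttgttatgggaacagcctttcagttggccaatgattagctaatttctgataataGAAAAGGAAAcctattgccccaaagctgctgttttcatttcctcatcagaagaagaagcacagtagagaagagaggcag
Gpr141b: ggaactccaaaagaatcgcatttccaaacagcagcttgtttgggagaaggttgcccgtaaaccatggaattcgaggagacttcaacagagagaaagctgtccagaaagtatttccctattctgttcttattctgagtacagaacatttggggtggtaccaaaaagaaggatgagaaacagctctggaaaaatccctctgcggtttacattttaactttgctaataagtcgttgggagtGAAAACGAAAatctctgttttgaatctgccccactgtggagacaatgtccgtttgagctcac
Ifitm3 held 2 cores, Cybb 3, and Ddx58 and Gpr141b 1 each.

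Receptor-proximal kinases and adaptors were lower more often than higher, 12 against 6 of 112 (median difference -0.06; 3 higher and 9 lower without CD172a DC array 1, 7 higher and 7 lower without CD172a DC array 2). Syk, the kinase downstream of Dectin-1 and Fc receptors, was at 7.30, 7.35 and 7.17 in CD24 DC against 8.53 and 8.82 in CD172a DC (-1.40 ± 0.18, adjusted p = 0.000447). Tec, a kinase of the Btk family, was lower by a like amount (-1.40 ± 0.21). Fyb, an adaptor for integrin activation, stood at 8.74, 8.89 and 8.45 against 10.27 and 10.42 (-1.65 ± 0.21). Sh2d1b1, an adaptor of SLAM receptors, was lower by 2.77 on the log2 scale (SE 0.24), Stap1 by 2.31 (SE 0.34) and the phosphatase gene Ptpn3 by 2.14 (SE 0.19). Clnk, an adaptor of the SLP-76 family, was higher, at 8.12, 8.51 and 7.65 against 4.68 and 5.07 (3.22 ± 0.36). Ptpn7 (1.67 ± 0.20) and Ubash3b (1.44 ± 0.20), both phosphatases, were higher.

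Small GTPase regulators split by gene. Fgd6 (2.63 ± 0.27) and Fgd2 (1.70 ± 0.24), exchange factors for Cdc42, were higher, Fgd6 at 7.78, 7.44 and 6.93 in CD24 DC against 4.65 and 4.85 in CD172a DC. Net1 (1.94 ± 0.20) and Tiam1 (1.60 ± 0.17), further exchange factors, were higher as well. Arhgap6 (-2.37 ± 0.29), Rhoq (-1.83 ± 0.27) and Arhgef3 (-1.39 ± 0.20) were lower. Rasgrp1, an exchange factor for Ras that binds diacylglycerol, was at 4.37, 4.52 and 4.27 against 6.14 and 6.73 (-2.05 ± 0.26). Its relative Rasgrp3 was higher by 1.49 ± 0.37, a call that ended without CD172a DC array 1 (adjusted p = 0.35), CD24 DC array 2 (0.095) or CD24 DC array 3 (0.0506). Rin2 (-2.01 ± 0.22) and Rras2 (-1.33 ± 0.19) were lower and Rasa3, a GTPase-activating protein, higher (1.14 ± 0.20).

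Of the called phosphoinositide and nutrient-sensing genes most were higher, while 98 of 111 were not called. Fnip2, a partner of folliculin and AMPK, was at 8.71, 8.77 and 9.0 in CD24 DC against 5.79 and 6.00 in CD172a DC (2.93 ± 0.23, adjusted p = 9.14e-06). Prkab2, a regulatory subunit of AMPK, was at 8.15, 7.99 and 8.45 against 6.4 and 6.88 (1.56 ± 0.22). Pi4k2a, a kinase that makes phosphatidylinositol 4-phosphate on endosomes, was at 8.61, 9.47 and 8.95 against 7.18 and 6.73 (2.05 ± 0.26). The phospholipase C genes Plce1 (2.18 ± 0.29) and Plcb4 (1.36 ± 0.21) were higher. Slc8b1, the mitochondrial sodium-calcium exchanger, was at 9.67, 9.06 and 9.23 against 6.38 and 6.64 (2.82 ± 0.23). Pde1b, a calmodulin-dependent phosphodiesterase, was higher (1.76 ± 0.21). Dgkd, a diacylglycerol kinase, was lower (-1.63 ± 0.21). For TGF-beta, BMP, Wnt and Hippo genes 4 were higher and 3 lower of 87 (median difference -0.03; 0 higher and 2 lower without CD172a DC array 1, 2 higher and 1 lower without CD172a DC array 2, 2 higher and 3 lower without CD24 DC array 2), and no call held without each array.

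Of 1133 measured genes in 13 metabolism lists, 84 were higher (7.41%) and 52 lower (4.59%), with a median difference of 0.07. The larger number of higher genes depended on 1 array. Without CD172a DC array 1, which is 1 of the 2 with high neutrophil markers, 32 were higher and 35 lower, so that the order of the counts turned. Without both neutrophil-marked arrays 23 were higher and 25 lower. Without CD172a DC array 2, 78 were higher and 24 lower, and without a CD24 DC array 63 to 97 were higher and 43 to 54 lower.

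Lysosomal genes had 11 higher and 5 lower of 84 (median difference 0.14; 7 higher and 4 lower without CD172a DC array 1, 10 higher and 1 lower without CD172a DC array 2, 12 higher and 3 lower without CD24 DC array 3). Gusb, the lysosomal beta-glucuronidase, was at 10.18, 9.57 and 9.98 in CD24 DC against 6.58 and 6.96 in CD172a DC (3.14 ± 0.22, adjusted p = 2.91e-06). Psap, the precursor of the saposins that present sphingolipids to hydrolases, was at 11.94, 11.83 and 11.94 against 9.97 and 10.14 (1.85 ± 0.18). Laptm4b, a lysosomal membrane protein, was at 8.30, 9.45 and 9.48 against 6.33 and 6.06 (2.88 ± 0.32). These groups lay far apart relative to their spread. Cpq (2.11 ± 0.26), a carboxypeptidase, Atp6v0a2 (2.06 ± 0.24), a proton pump subunit, and Fuca1 (1.78 ± 0.24), the lysosomal fucosidase, were higher. Npc2, which carries cholesterol out of lysosomes, was at 10.32, 9.86 and 10.09 against 8.28 and 8.22 (1.84 ± 0.20). Ctsd, the protease cathepsin D, was lower, at 5.76, 6.77 and 5.88 against 7.73 and 7.74 (-1.60 ± 0.27). Ctsc (-1.38 ± 0.29) and Ctsa (-1.29 ± 0.27) were lower with calls that ended without CD172a DC array 2 (adjusted p = 0.141 and 0.161).

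Redox genes had 11 higher and 2 lower of 90 (median difference 0.09; 5 higher and 2 lower without CD172a DC array 1). Gclc, the catalytic subunit of the first enzyme of glutathione synthesis, was at 8.24, 8.97 and 9.53 in CD24 DC against 6.32 and 6.85 in CD172a DC (2.33 ± 0.30, adjusted p = 0.000373). Txn1, thioredoxin, was at 9.14, 9.40 and 9.17 against 7.99 and 7.67 (1.41 ± 0.20). Cbr3 (1.94 ± 0.27), a carbonyl reductase, and Glrx (1.53 ± 0.24), a glutaredoxin, were higher. Cybb, the catalytic subunit of the phagocyte NADPH oxidase, which makes superoxide, was at 7.19, 5.78 and 5.65 against 9.58 and 9.74 (-3.46 ± 0.60). Selenop, a selenium carrier, was lower (-1.55 ± 0.21). Of the 9 higher redox genes with a promoter window none held the antioxidant response element core, and of 8 higher lysosomal genes 1 held the CLEAR core. Over all genes tested the shares were 14.9% and 1.44%. With so few windows the counts cannot be told apart from these shares.

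Glycolytic genes had 8 higher and 4 lower of 58 (median difference 0.15; 2 higher and 4 lower without CD172a DC array 1, 4 higher and 3 lower without CD172a DC array 2). Pgk1, phosphoglycerate kinase, was at 9.55, 9.16 and 9.13 in CD24 DC against 6.73 and 7.27 in CD172a DC (2.28 ± 0.22, adjusted p = 3.3e-05). Hk3, a hexokinase of myeloid cells, was higher (1.73 ± 0.29). The glucose transporter genes Slc2a3 (-1.41 ± 0.22) and Slc2a6 (-1.63 ± 0.21) were lower. Respiratory chain and ATP synthase genes had 4 higher and none lower of 70, with a median of 0.22. That count was 0 without CD172a DC array 1 and 11 without CD172a DC array 2. Atp5h shows the spread behind it, with 10.14, 9.72 and 8.94 in CD24 DC against 6.25 and 8.77 in CD172a DC, and its call ended without CD172a DC array 1 (adjusted p = 0.509), CD24 DC array 1 (0.113) or CD24 DC array 2 (0.101). Among amino acid enzymes, 6 were higher and none lower of 98 (median difference 0.09; 3 higher and 0 lower without CD172a DC array 1, 4 higher and 1 lower without CD24 DC array 1, 3 higher and 1 lower without CD24 DC array 2, 5 higher and 1 lower without CD24 DC array 3). Gatm, the first enzyme of creatine synthesis, was at 8.24, 7.81 and 6.79 against 5.57 and 5.22 (2.22 ± 0.34), and Lap3, an aminopeptidase, was higher by 1.87 ± 0.23.

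Eicosanoid genes held members called in both directions. Beside Ptgs2, Lta4h, which makes leukotriene B4, was at 7.20, 7.17 and 6.35 in CD24 DC against 8.41 and 8.69 in CD172a DC (-1.64 ± 0.26, adjusted p = 0.00183), and Ptger3, a receptor of prostaglandin E2, at 4.95, 4.71 and 5.27 against 6.86 and 6.61 (-1.76 ± 0.25). Pla2g4a, which releases arachidonic acid, and Hpgds, a prostaglandin D synthase, were lower by 0.98 and 1.00 on the log2 scale. Both calls ended without CD172a DC array 2 (adjusted p = 0.0793 and 0.0695), and that of Pla2g4a also without CD172a DC array 1 (0.119) or CD24 DC array 2 (0.0526). Tbxas1, thromboxane synthase, was higher (1.2 ± 0.20). Alox5ap, the helper of 5-lipoxygenase, was higher by 1.30 ± 0.22, a call that ended without CD172a DC array 1 (adjusted p = 0.0714). The list of eicosanoid, retinoid and steroid enzymes had 2 higher and 7 lower of 68 (median difference -0.09; 1 higher and 6 lower without CD172a DC array 1, 3 higher and 3 lower without CD172a DC array 2, 2 higher and 4 lower without CD24 DC array 2).

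The list of phospholipid and sphingolipid genes held members called in opposite directions. B4galt6, a synthase of lactosylceramide, was at 5.91, 6.35 and 5.98 in CD24 DC against 9.01 and 9.40 in CD172a DC (-3.12 ± 0.26, adjusted p = 1.56e-05). St8sia6, a sialyltransferase placed in this list, was at 4.95, 5.48 and 5.84 against 8.29 and 8.68 (-3.06 ± 0.25). St8sia1, the synthase of ganglioside GD3, was lower (-1.66 ± 0.26), and so was the ceramide synthase gene Cers6 (-1.83 ± 0.26). Galc, the lysosomal galactosylceramidase, was at 7.18, 7.72 and 7.03 against 4.99 and 4.84 (2.40 ± 0.35). Plpp1, a lipid phosphate phosphatase, was higher (2.36 ± 0.25). St3gal5, the synthase of ganglioside GM3, was higher by 1.09 ± 0.20, a call that ended without CD172a DC array 1 (adjusted p = 0.102). Over the phospholipid and sphingolipid list 9 were higher and 13 lower of 98 (median difference 0.05; 4 higher and 8 lower without CD172a DC array 1, 4 higher and 6 lower without CD172a DC array 2). Plin2, a lipid droplet coat protein, and Oxct1, which uses ketone bodies, were higher by 1.73 ± 0.25 and 1.57 ± 0.20.

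**Figure D4:**
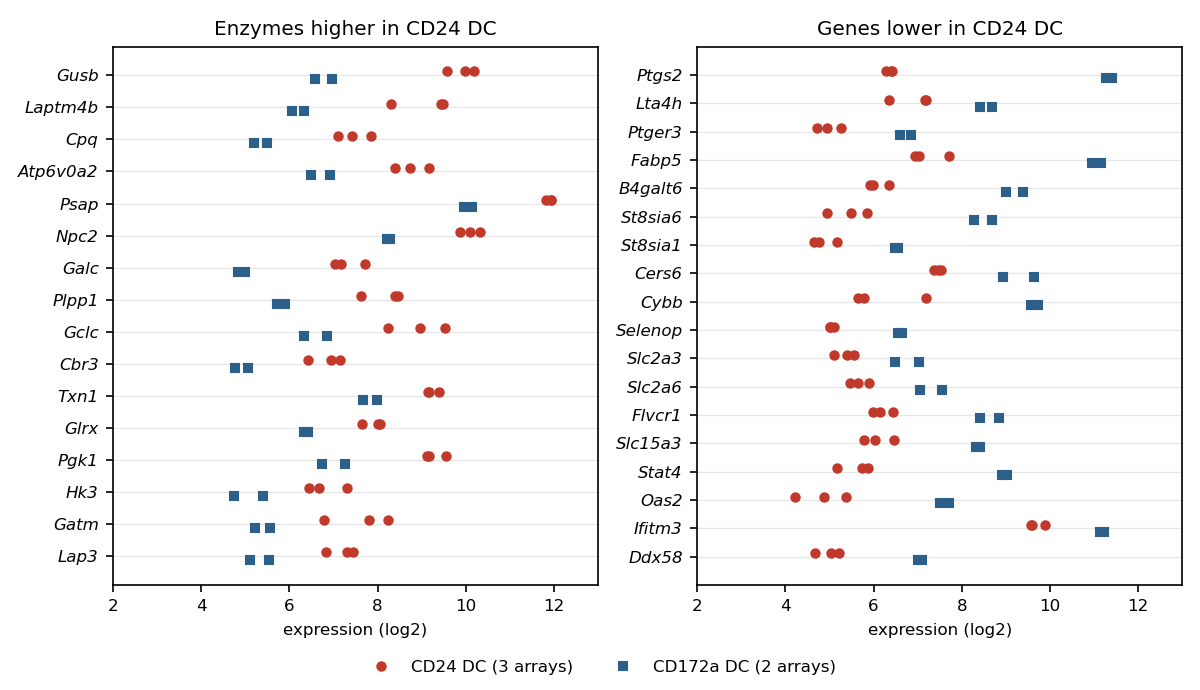
Log2 expression (x axes) on each spleen array of 16 metabolic genes higher in CD24 DC (left) and 18 metabolic, sensing and transport genes lower in CD24 DC (right), all with calls that held without each array. Circles are CD24 DC and squares CD172a DC; Ptgs2 shows the widest gap, at 6.29 to 6.42 in CD24 DC and 11.28 to 11.41 in CD172a DC.

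Amino acid, ion and other solute carriers were called equally often each way, 9 and 9 of 139 (median difference -0.08; 3 higher and 5 lower without CD172a DC array 1, 6 higher and 3 lower without CD172a DC array 2). Slco3a1, an organic anion transporter, was at 8.20, 8.33 and 7.87 in CD24 DC against 5.86 and 5.77 in CD172a DC (2.32 ± 0.20, adjusted p = 1.56e-05). Slc15a3, a peptide and histidine carrier of endolysosomes, was at 5.79, 6.03 and 6.46 against 8.42 and 8.32 (-2.27 ± 0.25). Abcb1a, a drug efflux pump, was lower (-1.86 ± 0.26). The separate list of iron, haem, copper and zinc genes had 1 higher and 3 lower of 57 (median difference 0.05; 1 higher and 1 lower without CD172a DC array 1, 2 higher and 1 lower without CD172a DC array 2). In it Flvcr1, a haem and choline transporter, was at 6.45, 6.15 and 5.99 against 8.41 and 8.84 (-2.43 ± 0.21). Slc11a1, a metal transporter of phagosomes, was the 1 higher gene (1.75 ± 0.26).

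The same lineage difference was read in the marrow progenitors, as pre-CD8 minus pre-CD4 on other arrays of the same fit. There 156 genes were called (0.703%), 85 higher in pre-CD8 (0.383%) and 71 lower (0.32%). Of the 713 genes higher in CD24 DC, 42 were also called higher in pre-CD8 and 2 lower. Of the 526 lower in CD24 DC, 24 were also called lower in pre-CD8 and 1 higher. Gpr141b had a marrow difference of 4.03 ± 0.54, beside 4.81 in spleen, and Fgd6 1.91 beside 2.63. For Gpr141b the pre-CD8 arrays lay far apart, at 7.31 and 9.88, against 4.53 and 4.62 in pre-CD4, so the size of its marrow difference is uncertain. Lair1 had -1.5 beside -2.29 and Abca9, a lipid transporter gene, -2.29 beside -2.04. For other genes the differences in spleen and marrow were unlike. All progenitors came from marrow and all DC from spleen, so stage and organ cannot be told apart here. Ptgs2 had a marrow difference of 0.01 beside -4.97, and the test of the stage difference gave -4.98 (adjusted p = 2.11e-05). Irf8 had 0.15 beside 3.51, and Id2, a regulator of the cDC1 lineage, the reverse, 4.67 beside 1.48. Cd300c was called in opposite directions, at -2.37 in marrow and 1.92 in spleen. Over all genes the stage difference was called for 229 (1.03%), positive in 111 (0.5%) and negative in 118 (0.532%).

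**Figure D5:**
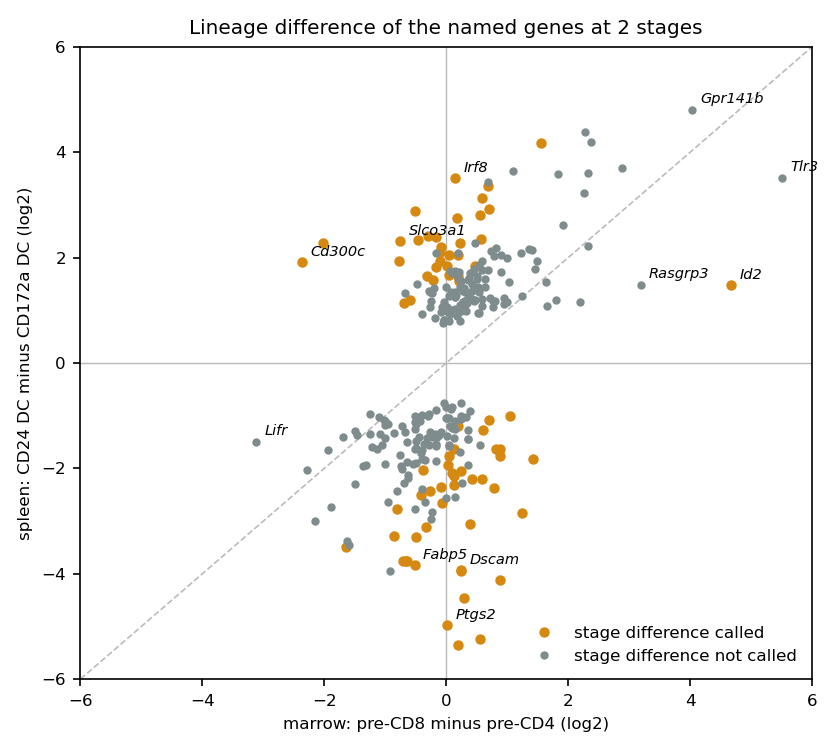
Spleen difference (CD24 DC minus CD172a DC, y axis) against marrow difference (pre-CD8 minus pre-CD4, x axis), both log2, for the 297 named genes called in spleen; filled orange points have a called stage difference and the dashed line marks equal differences. Ptgs2 lies at 0.01 on the x axis and -4.97 on the y axis, and Gpr141b at 4.03 and 4.81.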

How the data were processed

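RNA of sorted cells was amplified with the NuGEN Ovation Pico system and biotin-labelled, per the labels' protocols, and read on Affymetrix whole-transcript arrays. The deposited values are log2 expression per probe set. How the authors corrected, summarized and normalized them is not given in the sources used here. Without detection calls, low values may lie at background. Of 35145 probe sets, 23525 had 1 gene symbol in the platform annotation, and the probe set with the highest mean stood for each of 22184 genes. limma 3.58.1 in R 4.3.3 (lmFit, eBayes) fitted all 12 arrays with 5 group means (residual degrees of freedom 7, prior 6.18). Tests were two-sided, with Benjamini-Hochberg adjustment over all genes. The median standard error was 0.244 in spleen, and the number of arrays limits the precision. The script was tested on simulated data. Named genes were the 8 largest called each way outside the cDC lists, up to 5 each way per family list, up to 3 each way per list of other cells' markers, and a label panel. In all 291 were named by that rule and 14 were added after their values were seen. Related genes called in opposite directions were set side by side from among the named genes. Of 297 called, 157 held without each array, and giving values mainly for these was decided after the calls were seen. Members and lists were chosen with earlier results of these data known. Same-number arrays deviated at r = -0.162 and 0.024, so numbers were not read as pairs. The count of 1 signalling list is not reported here.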

Additional observations from a re-analysis of the deposited data

Results flagged for a closer look

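The lineage difference in spleen (CD24 DC minus CD172a DC) differed from that in marrow (pre-CD8 minus pre-CD4) in 76 of the named genes by limma's test of the difference itself, at an adjusted p under 0.05. Most were named because they were called in spleen, which favours a large spleen difference, so their number says little about the stages. The values below are spleen minus marrow on the log2 scale. Genes of the surface lists with a positive value were Ly6c2 (4.28), Ctla4 (2.71), Met (2.58), Gpr171 (2.28), Sema4a (2.04), Flt1 (1.86), Fcgrt (1.78), Tnfrsf21 (1.47). Genes outside the surface lists with a positive value were Laptm4b (3.39), Irf8 (3.36), Slco3a1 (3.07), Gclc (2.79), Net1 (2.72), Cadm1 (2.69), P3h2 (2.62), Galc (2.56), Gusb (2.56), Slc8b1 (2.26), Cpq (2.22), Fnip2 (2.22), Pgk1 (2.06), Pi4k2a (2.01), Clec12a (1.99), Enpp4 (1.98), Rasa3 (1.85), Npc2 (1.83), Plpp1 (1.79), Oxct1 (1.78), Ptpn7 (1.61), Psap (1.38), Gng12 (1.34). Genes of the surface lists with a negative value were Il1r2 (-5.00), Dscam (-4.17), Clec4b1 (-4.09), Adgre1 (-3.11), Adgre4 (-3.10), Emb (-2.80), Ccr3 (-2.78), Cd22 (-2.65), Pilra (-2.64), Siglece (-2.59), Tlr1 (-2.52), Tnfsf8 (-2.44), Ackr1 (-2.43), Il21r (-2.26), Cd300ld (-2.09), Clec4n (-1.96), Il12rb2 (-1.87), Ptger3 (-1.80), Plxnd1 (-1.65), Plxnc1 (-1.39). Genes outside the surface lists with a negative value were Clec4a4 (-5.79), Tlr7 (-5.55), Ptgs2 (-4.98), Gm9733 (-4.75), Gm6637 (-4.18), St8sia6 (-3.45), Fabp5 (-3.32), Arhgap6 (-3.15), Bex6 (-3.05), B4galt6 (-2.79), Stap1 (-2.43), Rasgrp1 (-2.28), Ptpn3 (-2.26), Ddx58 (-2.17), Flvcr1 (-2.16), Mt2 (-2.04), Sh2d1b1 (-1.98), Ksr1 (-1.80), Lta4h (-1.76), Ppargc1a (-1.34). Id2 (-3.19) was called higher in both stages, with the larger difference in marrow. Cd300c (4.29) and Rhoq (-3.25) were called in opposite directions at the stages. The spleen calls of 5 of these genes ended without single arrays, that of Ly6c2 without CD172a DC array 2 (adjusted p = 0.0639), of Fcgrt without CD172a DC array 1 (0.0715), of Il12rb2 without CD172a DC array 1 (0.0611) or array 2 (0.0721), of Ksr1 without CD172a DC array 1 (0.111), CD172a DC array 2 (0.0959) or CD24 DC array 2 (0.0555), and of Mt2 without any 1 of the 5 (0.061 to 0.192). H2-Eb1 (-3.67) was higher in pre-CD8 by 3.90 and differed by 0.23 in spleen, and Sirpa (-1.86) was lower in both stages, but both encode proteins used for the sorts. No explanation of these differences was tested, and stage cannot be told apart from organ.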

How the results depend on the processing

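Counts of genes higher and lower in CD24 DC were 713 and 526. Fitting only the 5 spleen arrays gave 332 and 279, and leaving out both arrays with high neutrophil markers, chosen after seeing the data, gave 176 and 232; both fits hold fewer arrays. The interquartile range as a covariate gave 844 lower. Leaving out 1 array gave 255 to 919 higher and 287 to 542 lower. The stage count of 229 was 404 with that covariate, 130 to 278 without 1 array and 96 without both neutrophil-marked arrays; these stage settings were added after seeing the data. With the replicate block the counts were 878 and 565, and 7 of the 297 named calls were lost. Quantile normalization lost 8 named calls, the covariate 2, the mean of probe sets 2 and the filter on dim genes none of 272. Only the 5 spleen arrays lost 80, leaving out CD172a DC array 1 lost 109 and array 2 87, a CD24 DC array 24 to 43, and both neutrophil-marked arrays 143. No called gene among those named changed direction. Among genes that were not called, Esam turned to 0.03 with the covariate, 0.05 with quantile normalization, 0.0 without CD172a DC array 2 and 0.13 without CD24 DC array 1. Itgax turned to -0.12 with quantile normalization, -0.28 without CD172a DC array 1, -0.11 without CD24 DC array 1 and -0.13 without both neutrophil-marked arrays, and H2-Eb1 to -0.01 without CD172a DC array 1 and without both. Over single omissions Itgax ran between -0.28 and 0.38 and H2-Eb1 between -0.01 and 0.47. The causes were not tested.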
